A study of Mus musculus with 6 samples.

Results

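Described here are 92 of 12780 measured genes whose RNA was lower in anti-CD40 stimulated than in unstimulated migratory type 1 conventional dendritic cells (cDC1) of the mouse. They include Trim25 and Trim34a of antiviral defence, the matrix-linked Thbs1, Mmp7 and Ndnf, 9 genes that build sugar chains, and Ido2 and Haao of tryptophan breakdown. The genes were chosen by their measured values. A gene was kept where the mean log2 intensity was at least 1.5-fold lower in stimulated cells and all 3 stimulated arrays lay below all 3 unstimulated arrays. Of 106 genes that met this rule (0.829% of those measured), 14 were left out by name, and Cd74, also named there, did not meet it. What follows on the contrast between the groups is therefore a description of selected values and carries no test.

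Both groups were CD40-positive migratory cDC1 sorted from skin-draining lymph nodes of wild-type C57BL/6 mice, and all carried XCR1 but not B220, CD326 or Sirpa at the surface by the sort. One group was unstimulated and the other was stimulated with anti-CD40, with 3 samples and 3 arrays each. The labels leave unsaid the age and sex of the mice, the dose and duration of the stimulation, and its setting (animal or dish). They call the samples biological replicates, and the spread between them may be partly technical. The RNA of each array came from many sorted cells, so fewer cells of a kind and less RNA per cell cannot be told apart.

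Dendritic cells of this type take up antigen in the skin, travel to the draining lymph node and present it to T cells. Helper T cells carry the ligand of CD40, and engaging CD40 with an antibody replaces that contact. Maturation of dendritic cells is known to alter cytokine production, antigen uptake, the cytoskeleton and surface glycans.

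The sorted identity was checked on 14 measured markers of cDC1. Irf8, the lineage factor, had a mean log2 level of 11.64 in stimulated cells and was 0.64 lower in unstimulated cells, and Batf3, its partner, had 9.35 in unstimulated and 9.76 in stimulated cells. Other markers lay on the other side of 0, with stimulated minus unstimulated differences for Cd24a of -0.48, Flt3 of -0.31, Clec9a of -0.26 and Ppt1 of -0.24, and the median difference of the 14 was 0.08. Xcr1, the receptor used in the sort, was dim, with 4.44 and 4.67, where an intensity of 20 corresponds to 4.32. None of the 92 genes was in any of the marker lists for dendritic cells or other cell types. The median deposited intensity of an array was between 51.9 and 56.3, and the interquartile range of log2 levels ran from 1.74 to 2.32. Every probe set in the deposited table had a group mean intensity of at least 20 in 1 of the groups. All 92 genes were above 20 as an unstimulated mean, and 5 of them (Ifna2, Scd1, Ceacam15, 2310030G06Rik and Gm1604a) were under 20 as a stimulated mean, so these 5 stood in the table through the unstimulated group alone.

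The 92 genes had a median difference of -0.74 on the log2 scale, a 1.67-fold lower intensity, against a median of 0.005 over all genes. The range was -1.76, for Gm5486, to -0.59. The difference was -1 or lower for 15 genes, and 34 genes lay between -0.7 and the threshold. The median level of the 92 genes was 6.86, 6.83 and 6.73 on unstimulated replicates 1, 2 and 3, and 6.07, 5.78 and 5.99 on stimulated replicates 1, 2 and 3. All 3 stimulated medians were thus below all 3 unstimulated ones, as the rule requires of each gene, while the median of all genes stayed between 5.63 and 5.80 on the 6 arrays. The distance between the lowest unstimulated and the highest stimulated value had a median of 0.20 and was over 0.5 for 11 genes and under 0.1 for 21. Among the 12780 genes, 442 (3.46%) had stimulated values below all unstimulated values without the condition on size. The limma test called 0 of the 12780 genes lower at a Benjamini-Hochberg adjusted p under 0.05 (0%), so 0 of the 92 passed it. At an unadjusted p under 0.05 it held 181 genes (1.42%), 86 of the 92 among them, a count that the rule largely fixes. The number of genes meeting the rule, 92, was 207, 202 or 132 when unstimulated replicate 1, 2 or 3 was left out. It was 331, 144 or 114 when stimulated replicate 1, 2 or 3 was left out. With any array left out fewer arrays have to lie apart, and the count also differed with the array. The cause of that spread was not tested.

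**Figure D1:**
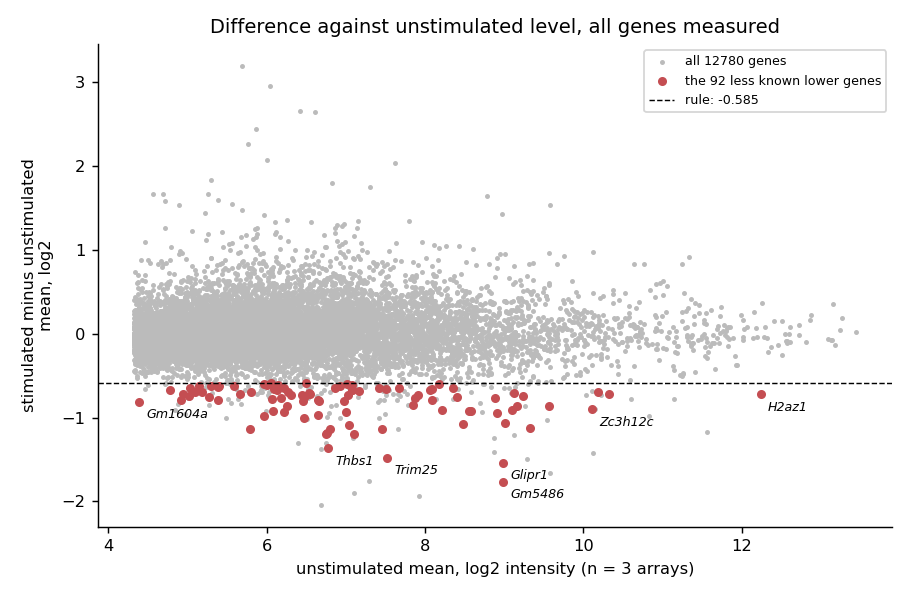
The stimulated minus the unstimulated mean log2 intensity (vertical axis) is plotted against the unstimulated mean log2 intensity (horizontal axis, 3 arrays) for 12780 genes in grey and the 92 genes in red, with the 1.5-fold threshold as a dashed line. The red points run from -1.76 to -0.59 over unstimulated levels from 4.39 to 12.24, and grey points below the line are genes left out by name or with overlapping groups.

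**Figure D2:**
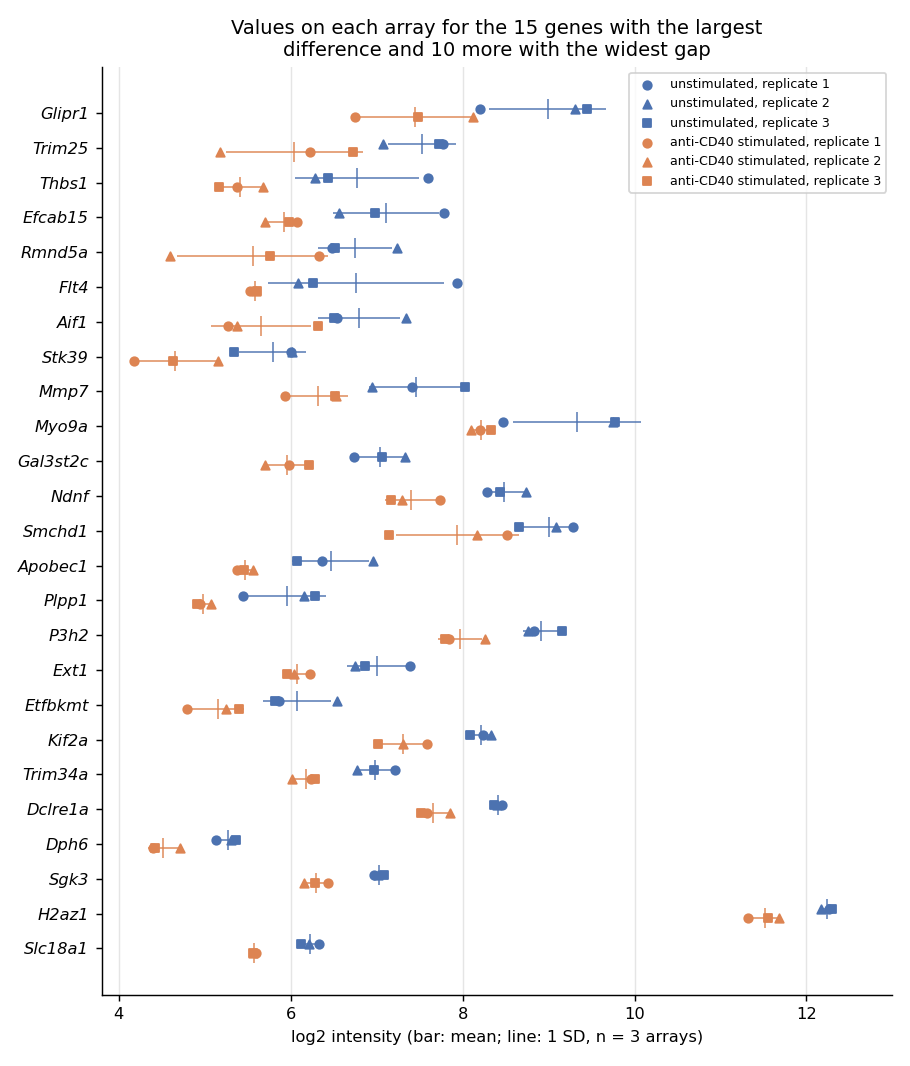
Each point is the log2 intensity of 1 array (horizontal axis) for 25 of the genes, with the mean as a vertical bar and 1 SD as a horizontal line (3 arrays per group, unstimulated in blue, stimulated in orange). In each of the 25 genes the blue points lie to the right of the orange ones, and the spread differs from gene to gene, from an SD of 0.02 in stimulated Slc18a1 to 1.02 in unstimulated Flt4.

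Of 8 genes of innate defence or linked to interferon, the median difference was -0.83. Under all 17 settings 5 of the 8 met the rule, and 27 of the 92 genes did. Ifna2, Cxcl10 and Aif1 were not among the 5. The settings are the main setting, other scalings, filters, choices of probe set, test models and left-out arrays. The main setting defined the genes, and a variance trend or a replicate block in the test leaves every difference unchanged, so all 92 passed there by construction. For the 83 genes with 1 probe set, the choice of probe set could change nothing either. Trim25, a ubiquitin ligase that acts on the RNA sensor RIG-I, had log2 levels of 7.77, 7.07 and 7.73 on the unstimulated arrays and 6.23, 5.17 and 6.73 on the stimulated arrays. Its difference was -1.48 (2.79-fold lower), the groups were 0.34 apart, and the stimulated values had the wider spread (SD 0.79 against 0.39, n = 3 each). The promoters shown here and below are those of the genes with the largest differences that had a promoter sequence. The promoter of Trim25 holds a match to an interferon response type motif close to the start of the gene. It is the plus strand of chr11:88999153-88999452 in GRCm38.p6, from RefSeq, written 5′ to 3′, and capitals mark the matches.

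Trim25: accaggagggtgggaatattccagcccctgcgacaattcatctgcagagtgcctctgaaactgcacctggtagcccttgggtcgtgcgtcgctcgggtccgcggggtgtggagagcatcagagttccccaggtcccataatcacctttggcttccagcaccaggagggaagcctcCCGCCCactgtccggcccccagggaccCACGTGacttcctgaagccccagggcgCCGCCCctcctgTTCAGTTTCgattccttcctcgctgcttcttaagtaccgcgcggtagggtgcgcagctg

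In that window the match TTCAGTTTC begins at position -9, counted from the start of the gene, and is GAAANNGAA read on the other strand. An E-box, CACGTG, begins at -48, and 2 GC boxes begin at -75 and -21. These are matches of letters, and no binding was measured.

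Trim34a, a relative of Trim25 that interferon is known to induce, had 7.21, 6.78 and 6.96 on the unstimulated arrays and 6.23, 6.02 and 6.28 on the stimulated arrays. The groups were 0.50 apart for a difference of -0.81 (1.75-fold lower). Aif1, the calcium-binding protein IBA1 of macrophages and microglia, had 6.54, 7.34 and 6.50 in unstimulated and 5.26, 5.38 and 6.32 in stimulated cells. Its stimulated replicate 3 came within 0.18 of the lowest unstimulated array, and the difference was -1.14. The 5 measured markers of monocytes and macrophages, none of them among the 92 genes, had summed intensities of 294 to 373 on the unstimulated arrays and 286 to 351 on the stimulated arrays, so the list as a whole overlapped between the groups. Its part in the value of Aif1 was not tested. Apobec1, the cytidine deaminase that edits apolipoprotein B mRNA, had 6.36, 6.96 and 6.08 unstimulated and 5.37, 5.56 and 5.45 stimulated. That is a 2.0-fold lower mean, with the groups 0.51 apart and the stimulated arrays close together (SD 0.10, n = 3).

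Parp8, of the ADP-ribosyltransferase family, differed by -0.86, and Crlf3, a cytokine receptor-like factor, by -0.79. Ifna2, an alpha interferon, differed by -0.79 at a low level, with stimulated values of 3.93, 4.55 and 3.92 of which 2 were under an intensity of 20. It was the only 1 of 8 measured type I interferon genes to meet the rule, and the median of the 8 was -0.07. Cxcl10, a chemokine that interferon is known to induce and that draws T cells, had 5.89, 7.25 and 5.77 unstimulated and 5.33, 5.72 and 5.68 stimulated. The groups were 0.05 apart, and the difference of -0.73 became -0.255 without unstimulated replicate 2. Cxcl9, which is induced with it, differed by -0.27 with overlapping groups and did not meet the rule. The median of 27 measured genes with symbols of interferon-induced families was -0.09.

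The group named receptors and membrane proteins of immune cells held 8 genes with a median difference of -0.75. The name is loose, since the group also took in Flt4, Tm4sf5, Ceacam15 and the pseudogene Btnl5-ps. Flt4, the receptor of the lymphatic growth factor VEGF-C, had 7.94, 6.08 and 6.26 on the unstimulated arrays and 5.53, 5.60 and 5.61 on the stimulated arrays. The stimulated arrays lay within a narrow band (SD 0.04), while unstimulated replicate 1 stood well above its group (SD 1.02, n = 3 each). Its difference of -1.18 became -0.59 without that array. Summed intensities of 6 measured fibroblast and endothelial markers were 218 to 263 in unstimulated and 195 to 275 in stimulated cells, and overlapped. The brightest of the 6 were the collagen genes Col1a1, Col1a2 and Col3a1, so the sum says little of endothelial cells. Of the endothelial markers, Pecam1 differed by -0.34 and Madcam1 by 0.04, both with overlapping groups. Among all 6 markers, 4 differed below 0. The part of these markers in the value of Flt4 was not tested.

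Myadm, a membrane protein of the myeloid lineage, differed by -0.91, from 9.39, 9.09 and 8.81 to 7.73, 8.11 and 8.74, with groups only 0.07 apart. Il18r1, a chain of the receptor for interleukin 18, differed by -0.78, Slamf6, a self-binding receptor of lymphocytes, by -0.74, and Pdcd1, the inhibitory receptor PD-1, by -0.61. Pdcd1 had 6.49, 5.84 and 6.11 unstimulated and 5.62, 5.43 and 5.55 stimulated. Its ligand gene Pdcd1lg2, left out by name, had 6.40, 6.75 and 6.38 unstimulated and 4.96, 5.77 and 5.76 stimulated, a difference of -1.01, and the gene of the other ligand, Cd274, differed by -0.09 with overlapping groups. Among 6 SLAM family genes measured, Slamf6 was the only one to meet the rule, and Slamf1 was higher in stimulated cells by 1.19 without overlap. Because Il18r1, Slamf6 and Pdcd1 are well known from lymphocytes, marker levels of these are given beside them. Summed intensities of 11 T cell markers were 318 to 431 unstimulated and 329 to 543 stimulated and overlapped. Single T cell markers went both ways: 4 of the 11 differed below 0, and the median was 0.10. Without overlap, 2 of the 11 were lower and 1 was higher, where 3.46% of all genes were lower without overlap. Summed intensities of 3 NK cell markers were 86.8 to 109 unstimulated and 70.9 to 89.8 stimulated and overlapped as well. Of the 3, Klrk1 was at 5.51 unstimulated and 4.73 stimulated, a difference of -0.78 with overlapping groups. Their part in these 3 genes was not tested. Btnl5-ps, a butyrophilin-like pseudogene, differed by -0.76, Ceacam15, of the carcinoembryonic antigen family, by -0.67 with all 3 stimulated arrays under an intensity of 20, and Tm4sf5, a tetraspanin-like protein, by -0.60.

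Among 6 secreted and matrix-linked proteins the median difference was -1.11, the most negative of the 14 role groups into which the genes were sorted after they were known. Glipr1, of the CAP family of secreted and membrane proteins, had 8.21, 9.31 and 9.45 on the unstimulated arrays and 6.75, 8.12 and 7.48 on the stimulated arrays. Its mean was 2.91-fold lower (-1.54), but both groups were broad (SD 0.68 and 0.69, n = 3 each) and came within 0.09 of each other. It met the rule under only 1 of 4 other scalings of the intensities, where 38 of the 92 genes met it under all 4. Thbs1, thrombospondin 1, a matrix protein that can activate TGF-beta, had 7.60, 6.29 and 6.43 unstimulated and 5.37, 5.68 and 5.16 stimulated. With a gap of 0.61 between the groups it was the most widely separated of the 92 genes, and its difference was -1.37 (2.58-fold).

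Mmp7, matrilysin, a protease of matrix proteins, had 7.41, 6.94 and 8.03 unstimulated and 5.93, 6.52 and 6.52 stimulated. Ndnf, a secreted glycoprotein with fibronectin type III domains, had 8.28, 8.73 and 8.43 unstimulated and 7.74, 7.30 and 7.16 stimulated. The differences were -1.14 and -1.08, and the groups were 0.42 and 0.54 apart. P3h2, which hydroxylates prolines in collagens inside the cell, had 8.83, 8.76 and 9.15 unstimulated and 7.84, 8.26 and 7.80 stimulated, a difference of -0.95. Its relatives P3h1 and P3h3 differed by 0.01 and 0.12 with overlapping groups. Hhip, which binds hedgehog ligands, differed by -0.73.

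A group of 9 genes makes or extends sugar chains, with a median difference of -0.80 and a range of -1.08 to -0.65. Gal3st2c, of the family that adds sulfate to galactose, had 6.74, 7.33 and 7.06 on the unstimulated arrays and 5.97, 5.69 and 6.21 on the stimulated arrays. It was 2.12-fold lower, with the groups 0.53 apart. Ext1, a subunit of the heparan sulfate polymerase, had 7.39, 6.74 and 6.87 unstimulated and 6.22, 6.04 and 5.95 stimulated. Its difference was -0.93, with the groups 0.52 apart.

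St8sia4, which makes polysialic acid, a modification that CCR7 on dendritic cells is known to carry, had 9.30, 9.04 and 9.16 unstimulated and 8.81, 8.44 and 7.64 stimulated. The difference was -0.87, and -0.54 without stimulated replicate 3, the lowest array. B3gnt5, which starts the lacto-series of glycolipids, differed by -0.92, A3galt2, which adds galactose to a glycolipid, by -0.66, and Fut4, which adds the fucose of the Lewis x antigen, by -0.65. Fut4 was dim, with a stimulated mean of 4.38 and 1 stimulated array under an intensity of 20. Both B3gnt5 and Fut4 met the rule under only 1 of 4 other scalings. Gnpnat1, of the pathway to UDP-N-acetylglucosamine, differed by -0.80, Galnt7, which acts early on O-linked chains, by -0.70, and Alg12, which adds mannose to the precursor of N-linked chains, by -0.69. The 9 enzymes thus belong to different kinds of chain: sulfated galactose, heparan sulfate, polysialic acid, glycolipids, and O-linked and N-linked chains. On a list of 117 measured genes of glycan synthesis, drawn up after the 92 genes were known, these 9 (7.69%) met the rule. Because of that order, the share cannot be read against the 0.829% of all genes that met it. On the same list 3 were higher by the mirrored rule: Extl2 by 0.62, Galnt10 by 0.62 and St3gal5 by 0.80. Over all 12780 genes 162 were, and for the same reason the 3 cannot be read against that count. The median of the 117 was -0.01, with 62 below 0 and 55 above, so the list as a whole was centred where all genes were.

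**Figure D3:**
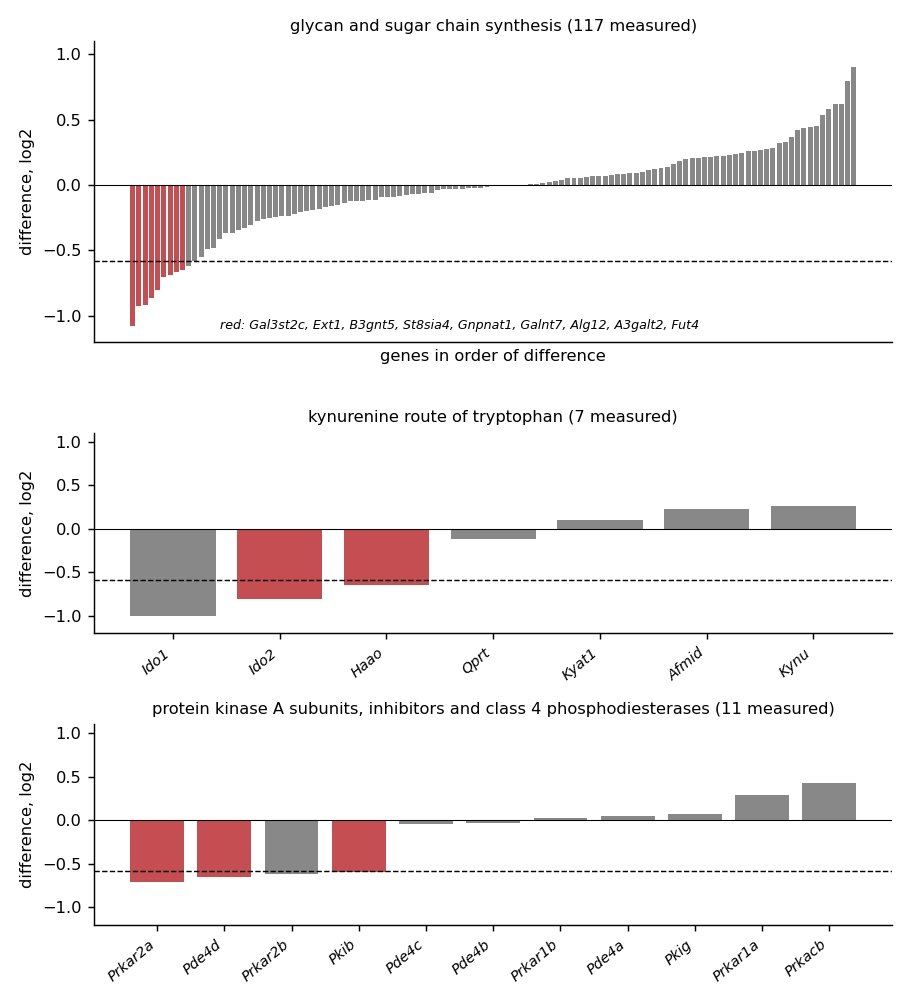
Bars give the stimulated minus unstimulated mean log2 difference (vertical axis) of each measured gene on 3 lists: glycan synthesis (117 genes), the kynurenine route (7) and protein kinase A with class 4 phosphodiesterases (11). Red bars are among the 92 genes, grey bars are not, and the dashed line is the 1.5-fold threshold, with grey Ido1, Prkar2b and St6gal1 below it because their groups overlapped.

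Metabolism of lipids and small molecules accounted for 8 genes with a median of -0.74. Plpp1, a phosphatase of phosphatidate and lysophosphatidate, had 5.44, 6.16 and 6.28 on the unstimulated arrays and 4.94, 5.07 and 4.91 on the stimulated arrays. It was 1.98-fold lower (-0.98) with a gap of 0.37, and none of the 5 other measured Plpp genes met the rule. Cyp2c23, a cytochrome P450 that epoxidises arachidonic acid, differed by -0.97, Ddhd1, a phospholipase that prefers phosphatidate, by -0.74, and Scd1, the stearoyl-CoA desaturase, by -0.74, at stimulated levels of 4.04, 4.68 and 4.08. Xdh, which makes uric acid, differed by -0.69, and by -0.37 without unstimulated replicate 1, which was at 5.74 against 4.67 and 4.89 for the other 2, and Smpdl3a, a phosphodiesterase of the acid sphingomyelinase family, by -0.66.

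Ido2 and Haao are enzymes of the kynurenine route, which breaks down tryptophan and is known in tolerance-inducing dendritic cells. Ido2 had 6.80, 6.15 and 6.43 unstimulated and 6.06, 5.63 and 5.28 stimulated (-0.80), and Haao had 6.96, 6.85 and 6.78 unstimulated and 5.99, 6.08 and 6.58 stimulated (-0.64). Ido1, the better known enzyme of the first step, had 7.39, 6.51 and 6.86 unstimulated and 6.58, 4.89 and 6.29 stimulated. Its difference of -1.0 was larger than that of Ido2, but stimulated replicate 1 lay above unstimulated replicate 2, so it did not meet the rule. Of the other 4 measured genes of the route, Kynu differed by 0.26, Afmid by 0.23, Kyat1 by 0.10 and Qprt by -0.12, all with overlapping groups.

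Signalling through cyclic AMP was represented by 3 genes. Prkar2a, a regulatory subunit of protein kinase A, differed by -0.71, Pde4d, a phosphodiesterase that degrades cyclic AMP, by -0.65, and Pkib, an inhibitor of protein kinase A, by -0.59. For Pde4d the highest stimulated and the lowest unstimulated array were both at 7.21. Prkar2b, the other type II subunit, differed by -0.62 with overlapping groups, and the measured catalytic subunit gene Prkacb by 0.43, also with overlap. Other regulatory, inhibitory and phosphodiesterase genes differed little or upward, Pde4a by 0.05, Pde4b by -0.03, Pde4c by -0.04, Pkig by 0.07 and Prkar1a by 0.30, all with overlapping groups. The list of 11 measured genes was drawn up after the 92 genes were known, so its count of 3 cannot be read against the 0.829% of all genes that met the rule, and its median was -0.03.

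The 5 kinase signalling genes had a median of -0.73. Stk39, the kinase SPAK, which acts on cation-chloride cotransporters, had 6.01, 6.02 and 5.34 unstimulated and 4.17, 5.15 and 4.63 stimulated. It differed by -1.14, and 1 stimulated array was under an intensity of 20. Sgk3, a kinase related to AKT and found on endosomes, had 6.97, 7.01 and 7.08 unstimulated and 6.43, 6.15 and 6.28 stimulated. With a difference of -0.73 and a gap of 0.54, its groups were tight (SD 0.06 and 0.14, n = 3 each), and its relatives Sgk1 and Sgk2 differed by 0.03 and -0.07. Tab3, an adaptor of the kinase TAK1, differed by -0.73 against 0.29 for Tab2 and 0.03 for Tab1. Phlpp1, a phosphatase of AKT, differed by -0.65, and Mapk6, an atypical MAP kinase, by -0.60 with the highest stimulated and the lowest unstimulated array both at 5.66.

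Ubiquitin enzymes outside the innate group numbered 4, with a median of -0.82. Rmnd5a, the RING subunit of the CTLH ubiquitin ligase, had 6.48, 7.24 and 6.52 unstimulated and 6.32, 4.59 and 5.75 stimulated. Stimulated replicate 2 was far below the others of its group (SD 0.88, n = 3), and the difference of -1.19 became -0.71 without it. Rmnd5b, its paralog, differed by 0.70 with overlapping groups, and the median of 11 measured subunits of the ligase was -0.13. The Rmnd5a promoter, shown by the same choice as that of Trim25, holds no interferon response type match, but CCAAT boxes and GC boxes. It is the minus strand of chr6:71440588-71440887 in GRCm38.p6, from RefSeq, 5′ to 3′, with matches in capitals.

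Rmnd5a: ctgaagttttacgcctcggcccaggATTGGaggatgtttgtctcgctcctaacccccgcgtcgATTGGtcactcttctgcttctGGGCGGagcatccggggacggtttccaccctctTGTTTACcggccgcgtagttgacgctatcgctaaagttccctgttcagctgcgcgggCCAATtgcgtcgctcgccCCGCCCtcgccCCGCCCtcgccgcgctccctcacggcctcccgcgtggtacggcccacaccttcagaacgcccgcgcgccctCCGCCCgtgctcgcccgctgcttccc

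The CCAAT matches begin at -225, -187 and -76 from the start of the gene and the GC boxes at -166, -58, -47 and 24, while a forkhead match, TGTTTAC, begins at -133 and is the other strand of the forkhead motif searched. Rnf152, a lysosomal ubiquitin ligase that acts on RagA, differed by -0.86. Otud1, a deubiquitinase, differed by -0.77, and Neurl3, a RING ligase, by -0.65.

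The cytoskeleton and vesicle traffic group held 7 genes with a median of -0.70. Myo9a, an unconventional myosin, had 8.47, 9.75 and 9.77 unstimulated and 8.21, 8.10 and 8.33 stimulated. Unstimulated replicate 1 came within 0.14 of the stimulated arrays, and the difference was -1.12. Kif2a, a kinesin that takes apart microtubule ends, had 8.24, 8.33 and 8.08 unstimulated and 7.59, 7.30 and 7.01 stimulated. Its groups were 0.49 apart, with a difference of -0.91. Tctex1d2, a dynein light chain, differed by -0.92, Tbc1d12, with a Rab GTPase-activating domain, by -0.70, and Fnbp1, an F-BAR protein that bends membranes at endocytic sites, by -0.70. Krt8, a keratin, differed by -0.62, beside summed intensities of 6 keratinocyte markers of 165 to 192 unstimulated and 154 to 170 stimulated, whose part in it was not tested. Fyco1, an adaptor that moves autophagosomes along microtubules, differed by -0.61.

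Transcription and chromatin formed the largest role group, with 12 genes and a median of -0.69. Smchd1, a chromatin protein of X inactivation and gene silencing, had 9.29, 9.08 and 8.65 unstimulated and 8.51, 8.16 and 7.14 stimulated. Stimulated replicate 3 stood below the other 2, and the difference of -1.07 became -0.67 without it. H2az1, a histone H2A variant found at promoters, had 12.26, 12.17 and 12.29 unstimulated and 11.32, 11.68 and 11.56 stimulated. Its groups were 0.49 apart for a difference of -0.72, while H2az2, the gene of the near-identical variant, differed by 0.26 with overlapping groups. Dclre1a, a nuclease that repairs DNA crosslinks, had 8.45, 8.40 and 8.37 unstimulated and 7.59, 7.85 and 7.52 stimulated. With an unstimulated SD of 0.04 and a gap of 0.52, its difference was -0.76.

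Rbpj, the DNA-binding factor of Notch signalling, had 7.78, 8.01 and 7.75 unstimulated and 7.49, 6.83 and 6.68 stimulated. Its difference was -0.84, and the Notch receptor genes Notch1, Notch2, Notch3 and Notch4 differed by 0.25, -0.11, -0.13 and 0.10. Id3, an inhibitor of E proteins, differed by -0.63, while Id2, on which the cDC1 lineage depends, differed by 0.20 with overlapping groups. Zmym2, of corepressor complexes, differed by -0.77, Glis3, a zinc finger factor, by -0.70, Tdrd3, a Tudor domain protein, by -0.68, Nfe2l3, of the NRF family, by -0.67, and Mlxip, the glucose-responsive factor MondoA, by -0.65. The last 2 of this group lay just inside the threshold. Zfp397, a zinc finger protein, had 5.86, 6.31 and 5.99 unstimulated and 5.83, 5.41 and 5.14 stimulated, and Bclaf3, named as a relative of the splicing-linked Bclaf1, had 6.40, 6.74 and 6.35 unstimulated and 6.22, 6.15 and 5.36 stimulated. Both differed by -0.59, and Bclaf3 by -0.31 without stimulated replicate 3. Just outside were B130006D01Rik, with 4.68, 4.79 and 4.70 against 3.91, 4.25 and 4.25, and N4bp2l1, with 9.42 on each unstimulated array against 8.94, 9.06 and 8.51. Both of these differed by -0.58 without overlap, so the threshold separates genes whose values are alike.

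The group of RNA processing and modification held 7 genes, with a median of -0.72, although Etfbkmt and Dph6 in it act on proteins. Etfbkmt, placed here as a methyltransferase although its substrate is a mitochondrial protein, had 5.87, 6.53 and 5.82 unstimulated and 4.80, 5.25 and 5.40 stimulated (-0.92). Dph6, which completes the diphthamide residue of elongation factor 2, had 5.13, 5.30 and 5.36 unstimulated and 4.40, 4.71 and 4.42 stimulated (-0.75). Both were 0.42 apart between the groups. Zc3h12c, the RNase Regnase-3, differed by -0.90, from 10.54, 9.76 and 10.03 to 9.73, 9.22 and 8.67, with groups 0.03 apart. Its relatives Zc3h12a and Zc3h12d differed by 0.40 and -0.25 with overlap. Rpph1, the RNA of RNase P, differed by -0.72, Isy1, a splicing factor, by -0.71, Nsun4, a methyltransferase of mitochondrial ribosomal RNA, by -0.63, and Tsen15, of the tRNA splicing endonuclease, by -0.61.

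The endoplasmic reticulum and cell death group held 3 genes. Dnajb9, a chaperone partner of BiP, differed by -0.67, Ero1b, an oxidase for disulfide bonds, by -0.67, and Pmaip1, the pro-apoptotic protein NOXA, by -0.65. Ero1a, the paralog of Ero1b, differed by -0.43, and Bbc3 and Bcl2l11, which encode other proteins of the kind of NOXA, by -0.07 and -0.05, all with overlapping groups.

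The 4 remaining named proteins had a median of -0.85. Efcab15, known only by its EF-hand domain, had 7.78, 6.56 and 6.98 unstimulated and 6.07, 5.70 and 5.98 stimulated. It was 2.28-fold lower (-1.19) with groups 0.49 apart and met the rule in all 17 settings. Slc18a1, a vesicular monoamine transporter, had 6.33, 6.21 and 6.12 unstimulated and 5.60, 5.56 and 5.56 stimulated. Its difference was smaller, -0.65, but its groups were among the tightest, with SDs of 0.11 and 0.02 (n = 3 each) and a gap of 0.52. Cacng7, an auxiliary subunit of glutamate receptors and calcium channels, differed by -0.93, and Rcbtb2, with RCC1 repeats and a BTB domain, by -0.77. The promoter of Efcab15 is shown by the same choice as that of Trim25. Its window, the minus strand of chr11:103208499-103208798 in GRCm38.p6 from RefSeq, is written 5′ to 3′ and held 1 match of the motifs searched, a CCAAT box at -250 (capitals).

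Efcab15: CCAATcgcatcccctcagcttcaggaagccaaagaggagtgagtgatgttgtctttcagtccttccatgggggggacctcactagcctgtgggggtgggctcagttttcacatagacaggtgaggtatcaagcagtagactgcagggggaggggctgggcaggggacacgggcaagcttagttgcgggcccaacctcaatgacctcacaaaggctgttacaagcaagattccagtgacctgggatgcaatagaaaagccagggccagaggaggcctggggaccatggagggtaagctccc

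Among 8 noncoding or uncharacterised genes was the largest difference of all, -1.76 (3.39-fold), for Gm5486, a noncoding RNA at chr16:49925921-49970189 in GRCm38.p6. It had 9.34, 8.35 and 9.27 unstimulated and 7.75, 7.34 and 6.59 stimulated. Its other probe set differed by 0.69 in the opposite direction with overlapping groups, so the gene has no single direction on this array. The long noncoding RNAs Gm1604a, Gm7008 and Lncpint differed by -0.81, -0.62 and -0.62, and Gm1604a was under an intensity of 20 on all 3 stimulated and 2 unstimulated arrays. The protein-coding 2310030G06Rik, 2610528A11Rik and 1110032F04Rik differed by -0.72, -0.69 and -0.62. The second of these carries the synonym Gpr15l in RefSeq, which names a ligand of the receptor GPR15.

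Mir27a, the host locus of miR-27a, had 6.40, 7.39 and 6.14 unstimulated and 5.71, 5.86 and 6.01 stimulated, a difference of -0.79 (-0.41 without unstimulated replicate 2). The probe set reads RNA of the locus, and the mature miRNAs were not measured separately. Both mature forms from RefSeq are shown because they have different seeds (bases 2 to 8, in capitals), on the plus strand of GRCm38.p6 at chr8:84208685-84208706 and chr8:84208727-84208747.

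miR-27a-5p: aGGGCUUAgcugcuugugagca

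miR-27a-3p: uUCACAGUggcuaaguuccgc

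Of the other genes of that miRNA cluster, Mir23a had 5.79, 6.89 and 5.25 unstimulated and 5.48, 5.20 and 5.33 stimulated, a difference of -0.64 with overlap, and Mir24-2 differed by 0.13. In both Mir27a and Mir23a, unstimulated replicate 2 was the highest array. Of 127 measured microRNA genes only Mir27a met the rule, a share near the 0.829% of all genes, and their median was -0.07.

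**Figure D4:**
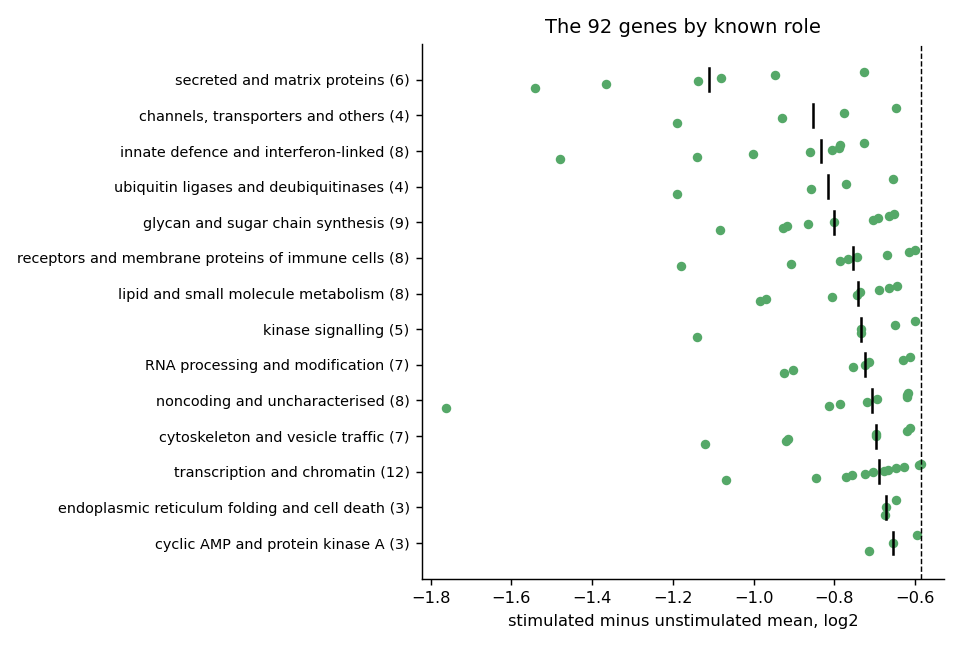
Each green point is the stimulated minus unstimulated mean log2 difference (horizontal axis) of 1 of the 92 genes, sorted into 14 groups by known role (vertical axis, number of genes in brackets), with the group median as a black bar and the 1.5-fold threshold as a dashed line. Secreted and matrix proteins have the most negative median, -1.11, cyclic AMP genes the least negative, -0.65, and Gm5486 the most negative point, -1.76.

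Measures that the choice of genes did not use were the further probe sets of the same genes. For 83 of the 92 genes the array held 1 probe set, and for 9 it held several, with 18 probe sets besides those used. They read the same 6 RNA samples, so they repeat the measurement and are not further replicates. Of the 18, 16 had a difference below 0, 11 were at the threshold or lower, and 6 met the whole rule. These counts weigh Myo9a most, with 8 of the 18 sets, and no share over all further probe sets of the array stands beside them. The second probe sets of H2az1, Gnpnat1, Smchd1 and Tctex1d2 differed by -0.74, -0.90, -0.74 and -0.74 without overlap, close to the values of the sets used (-0.72, -0.80, -1.07 and -0.92). Pde4d had further values of -0.98 and -0.53 without overlap, and Zc3h12c of -0.60 with overlap. The 8 further sets of Myo9a disagreed, from -2.01 to 0.52, with only the first free of overlap, and the 2 of Btnl5-ps were small, at -0.21 and -0.19. With the mean of all its sets, Myo9a differed by -0.74 in place of -1.12.

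**Figure D5:**
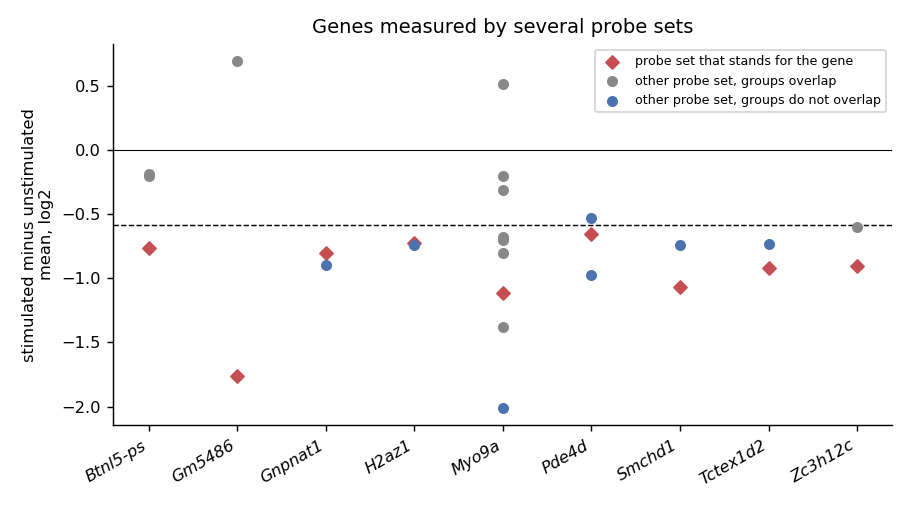
For the 9 genes with several probe sets (horizontal axis), each marker is the stimulated minus unstimulated mean log2 difference (vertical axis) of 1 probe set, with the set used for the choice as a red diamond, other sets as circles (grey where groups overlap, blue where not), and 0 and the 1.5-fold threshold as lines. The other sets of H2az1, Gnpnat1, Smchd1, Tctex1d2, Pde4d and Zc3h12c are below 0, those of Myo9a spread from -2.01 to 0.52, and that of Gm5486 is at 0.69.

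Counts by family name are given beside the 0.829% of all genes that met the rule. Of 45 measured tripartite motif genes, 3 met it, Trim25 and Trim34a among the 92 and 1 left out by name. The rule was met by 1 of 256 zinc finger genes, 1 of 233 solute carriers, 3 of 400 RIKEN clones and 3 of 230 predicted genes, counts near that share. It was met by 2 of 18 phagosome and endolysosome genes and 2 of 12 leukocyte trafficking genes, all of them left out by name and so not among the 92. Of 13 genes of innate sensing and 14 of the immediate early response, 0 met it, which at this share and these list sizes says nothing about the lists. The medians of the 4 lists were 0.13, -0.13, -0.07 and 0.34. By type, 85 of the genes were protein coding and 7 were not. They lay on 20 chromosomes, with at most 10 on any of them.

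In the genome, 5 pairs of the genes lay within 500 kb of each other. Gal3st2c and Pdcd1 on chromosome 1 were 26.8 kb apart, with Neu4 between them at 0.00, and Myadm and Cacng7 on chromosome 7 were 32.7 kb apart with no measured gene starting between. Pkib and Smpdl3a on chromosome 10 were 53.4 kb apart, and Fabp7, a fatty acid-binding protein gene between them, differed by -0.68 with overlapping groups (6.16, 5.59 and 6.05 unstimulated, 5.27, 5.65 and 4.83 stimulated). Gnpnat1 and Ddhd1 on chromosome 14 were 204.2 kb apart, and Cyp2c23 and Scd1 on chromosome 19 were 365.2 kb apart with 4 measured genes between, whose differences ran from -0.39 to -0.03.

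Promoter sequences from RefSeq (GRCm38.p6, 250 bases before to 50 after the start) were found for 71 of the 92 genes, as 88 windows, and for 10106 of all measured genes, as 12687 windows. The median GC content was 60.7% in the windows of the 92 genes and 60.3% in all windows. The interferon response type motif GAAANNGAA, searched on both strands like the others, was in 7.95% of the windows of the 92 genes and 6.90% of all windows, and the genes were Trim25, Trim34a, Ifna2, Cxcl10, Aif1, 2610528A11Rik and Gm1604a. The kB type motif GGGNNTTCC was in 6.82% and 7.25%, in Cxcl10, Ddhd1, Dclre1a, Galnt7, Alg12 and Tsen15. The E-box CACGTG was in 9.09% and 9.47%, CCAAT in 29.5% and 36.3%, the GC box GGGCGG in 52.3% and 58.9%, and TATAAA in 9.09% and 7.54%. Less common were the AP-1 motif TGACTCA (2.27% and 3.89%), the cyclic AMP response type TGACGTCA (1.14% and 2.83%), the STAT type TTCCNGGAA (1.14% and 1.22%), the PU.1 type GAGGAAGT (4.55% and 2.82%) and the forkhead type GTAAACA (2.27% and 2.62%). The shares in the 92 genes were thus near those of all promoters for most of the 11 motifs.

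The arrays did not contribute evenly. The lowest stimulated value was on replicate 3 for 41 of the 92 genes, on replicate 2 for 26 and on replicate 1 for 25. The highest unstimulated value was on replicate 1 for 39, on replicate 2 for 30 and on replicate 3 for 23. The median SD within groups was 0.32 over the 92 genes and 0.28 over all genes. With each array left out in turn, 72 to 86 of the 92 genes still met the rule, and 43 met it whichever array was left out. In all 17 settings tried, 27 did, among them Thbs1, Trim25, Trim34a, Efcab15, Apobec1, Ext1, Gal3st2c, Mmp7, Ndnf, Plpp1, Sgk3, Kif2a, Dclre1a, Rbpj and Ido2. As said above, some of the 17 settings could not change the outcome. For 18 genes the difference shrank by over 1.5 times when 1 array was left out, most often stimulated replicate 3 (8 genes). Without stimulated replicate 3, Dnajb9 differed by -0.30, Zmym2 by -0.35, Rpph1 by -0.36, Alg12 by -0.41 and B3gnt5 by -0.58, beside Bclaf3, St8sia4 and Smchd1 above. Without stimulated replicate 2, Tab3 differed by -0.41, Krt8 by -0.34 and Tm4sf5 by -0.39, beside Rmnd5a. Without unstimulated replicate 3, Nfe2l3 differed by -0.42 and Gm1604a by -0.51. Each of the 18 stayed below 0, as the rule fixes, since every stimulated value lies below every unstimulated one.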

How the data were processed

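Per the submitters' processing notes, the authors processed the arrays with Affymetrix Expression Console and RMA (background correction, quantile normalization and probe set summary), with versions not given in the sources used here. They deposited linear intensity values for 17551 probe sets on 6 arrays, of which log2 was taken. The platform annotation gave 13963 probe sets exactly 1 symbol, and the set with the highest mean was used per gene, which left 12780 genes. The comparison of the groups used the limma package (3.58.1, under R 4.3.3) with lmFit, eBayes and no covariate (two-sided, Benjamini-Hochberg adjustment over all genes). The fit was tried on simulated data with independent arrays, which cannot show how it behaves where same-numbered arrays share deviations. Gaps, lists, promoters and figures were computed in Python 3.11.15 with pandas 2.3.3 and matplotlib 3.10.9. Values on all arrays are given for the 15 genes with the largest difference, the 10 further genes with the largest gap, both without clone or model names, and the genes nearest the threshold. Other genes with values on all arrays were chosen after these were seen. The genes and lists were chosen with earlier results of these data known, and the role groups and 14 of the lists were made after the 92 genes were known. Alternatives were other scalings, filters, probe set choices, variance models, thresholds, array weights, a block and left-out arrays. The deposited values carry no detection call, and with 3 arrays a group the precision is limited by their number.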

Additional observations from a re-analysis of the deposited data

How the results depend on the processing

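The differences stayed below 0 for every one of the 92 genes that a setting measured, except that of Gm5486 with the dimmest probe set of each gene (0.69). For a given probe set the rule fixes this sign with arrays left out, array weights, 20 added, a filter or another variance model. Only other scalings and choices of probe set could change it. A filter on dim genes left 78 of the 92 measured. The number of genes meeting the rule, 92, was 48 with 20 added to each intensity before log2, 211 with no condition on overlap, 15 at a threshold of -1 and 173 at -0.4, and lay between 114 and 331 when 1 array was left out. The median difference, -0.74, was -0.61 with 20 added, a constant that shrinks differences of dim genes by construction, and -0.71 to -0.81 elsewhere. The limma test called 0 genes lower at an adjusted p under 0.05 as deposited (181 at an unadjusted p under 0.05), 0 with any array left out and 0 at an adjusted p under 0.1, but 1 after a second quantile normalization, 1 with arrays centred on their medians and 18 with array weights, 6 of them among the 92 (Dph6, Gm5486, Ndnf, P3h2, Plpp1 and Sgk3). The cause was not tested. The weights gave unstimulated replicate 3 a value of 6.14 against 0.52 and 0.59 for replicates 1 and 2, and took Aif1 from -1.14 to -0.56. With the replicate number as a replicate block, 8 genes were called, Glipr1 and Trim25 among the 92. Deviations of same-numbered arrays correlated over all genes at 0.73 and 0.59 for replicates 1 and 2, and at 0.06 for replicate 3. The labels name no pairing, so the main fit did not take the numbers as pairs, and its count of 0 depends on that choice. Scaling the arrays to one interquartile range, chosen after seeing the data, gave 136 genes by the rule. For the named genes, 462 values under the alternatives kept their sign, which the lack of overlap fixes in many of the settings. Of these values, 7 passed the adjusted p threshold of 0.05. They were Ndnf, Plpp1, P3h2, Dph6 and Sgk3 with array weights and Glipr1 and Trim25 with the block. A kept sign says nothing of the 1.5-fold threshold, which for example Dph6 (-0.45), Slc18a1 (-0.48) and Zfp397 (-0.43) missed with 20 added. Under all 4 scalings tried, 38 of the 92 met the whole rule.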
